A study of Mus musculus with 6 samples.

Results

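Protein kinase A (PKA) subunits, PKI inhibitors and *Arhgap36* were described in MIN6 cells with and without activation of *Thada*. The 9 genes were *Prkaca* and *Prkacb* (catalytic subunits), *Prkar1a*, *Prkar1b*, *Prkar2a* and *Prkar2b* (regulatory subunits), *Pkia* and *Pkib* (inhibitors) and *Arhgap36*, found by gene symbol among 16640 genes. *Arhgap36* was chosen by its difference between the conditions in these libraries, where it was 1 of the 19 genes called once the replicate number entered the model as a block, and its values are therefore given as a description without a test. The other 8 genes were taken for their known roles. All 9 were among the 12516 genes that passed a filter on low counts.

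MIN6 is a mouse β-cell line derived from an insulinoma. Both groups were stable lines made with lentiviruses and antibiotic selection. *Thada*-activated cells carried a catalytically dead Cas9 fused to an activator, together with a guide RNA to *Thada* that recruits further activators, and control cells carried the dead Cas9 with a non-targeting guide. Each condition had 3 libraries. The study's methods describe its in vitro work in general as independent experiments, but the sample labels do not say how these libraries were grown, and p-values measure the spread between them. Library totals ranged from 17166511 to 17727004 counts. Levels are given as CPM (counts scaled to the library size) after TMM normalization, and levels of different genes are compared in FPKM, which divides by gene length. Values per library are in the order of replicates 1, 2 and 3.

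When cAMP rises, it binds the regulatory subunits of PKA and frees the catalytic subunits, which phosphorylate many proteins. In β-cells this pathway raises glucose-stimulated insulin secretion downstream of incretin receptors. PKI proteins and ARHGAP36 both block the catalytic subunits, and ARHGAP36 also drives their degradation and activates hedgehog target genes.

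The label of the cells was checked on markers. Of 12 β-cell markers, 11 passed the filter, and *Ins2* was the most abundant. The summed markers gave 109000, 97960 and 131600 CPM in the control libraries against 103300, 101300 and 114800 CPM after activation. Of 12 acinar and duct markers, 1 passed the filter (*Krt19*), and 11, among them *Cpa1*, *Ptf1a* and *Sox9*, were unlisted or at the floor of 3 counts in every library. The summed acinar and duct markers were 0.585, 0.523 and 0.459 CPM in control and 2.48, 1.49 and 1.08 CPM in *Thada*-activated replicates 1, 2 and 3. Of 12 fibroblast, endothelial and blood markers, 3 passed, *Col1a1* was the most abundant, and the sum lay between 3.84 and 8.02 CPM. Of 5 other islet hormone genes, 3 passed the filter, and *Sst* (57.9 to 156.0 CPM), *Gcg* (13.8 to 22.4 CPM) and *Ppy* (17.8 to 38.9 CPM) were counted in every library. Markers of β-cells and of these other islet cells were thus counted, while most acinar, duct and blood markers did not pass the filter.

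*Thada*, the targeted gene, had levels of 28.0, 28.9 and 17.2 CPM in the control libraries against 57.3, 56.2 and 49.1 CPM after activation of *Thada*, in the direction of the labels. Even so its adjusted p was 1 by edgeR's quasi-likelihood test, and 0.00041 with the replicate block, so that an adjusted p of 1 without the block does not show that a gene was unchanged. On the first principal component, which held 80.1% of the variance, replicate 3 of each condition was far from the other libraries. Less RNA per cell and fewer cells with a transcript cannot be told apart in such bulk libraries.

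Among the 8 PKA genes, 0 passed edgeR's quasi-likelihood test of the conditions, at an adjusted p under 0.05 and a fold change over 1.5. Over all genes tested, 0 of 12516 (0.0%) were called, with 101 at an unadjusted p under 0.05. None of the 8 had an unadjusted p under 0.05 in this test. DESeq2 also called 0 of the 8, against 5 of 16601 genes (0.0301%), and limma on FPKM called 0 of the 8 and 0 of all 12516. With the replicate block, 0 of the 8 were called, against 19 genes (0.152%), and 1 of the 8 had an unadjusted p under 0.05, as did 1302 of all tested genes (10.4%). That gene was *Prkar2a* (unadjusted p = 0.0369, adjusted p = 0.443 by blocked edgeR). With a single library left out, the sign of the fold change turned in at least 1 case for each of the 8 genes except *Prkar2a*.

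**Figure D1:**
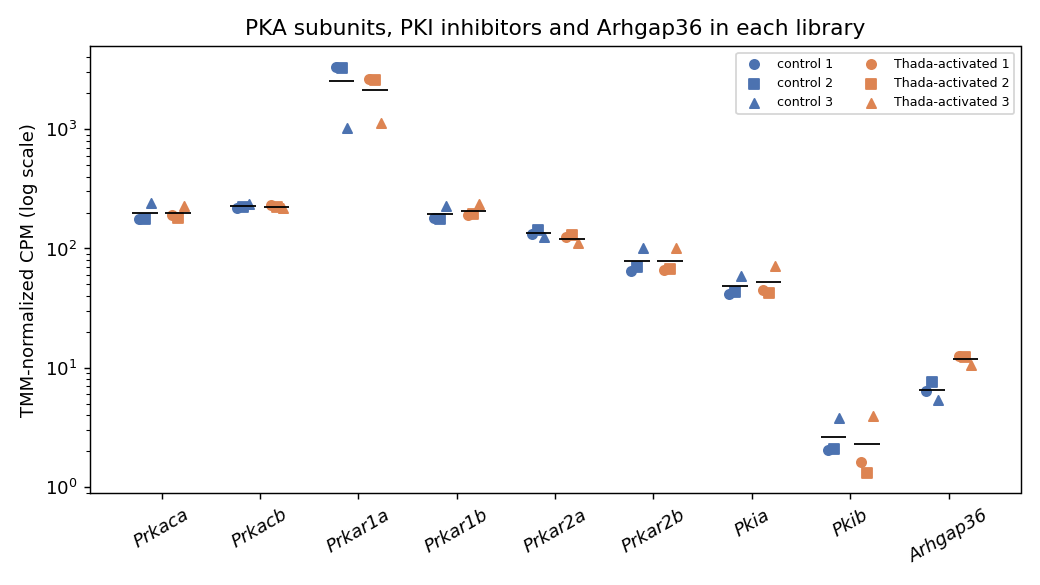
TMM-normalized CPM (log scale) of each gene in each library; circles, squares and triangles are replicates 1, 2 and 3, and black lines are means of 3 libraries. *Prkar1a* lay between 1024 and 1115 CPM in the replicate 3 libraries and between 2583 and 3333 CPM in the others, and *Arhgap36* was higher in each *Thada*-activated library than in any control library.

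*Prkaca* encodes the catalytic subunit Cα. It had levels of 177.6, 176.3 and 241.7 CPM in the control libraries against 189.3, 180.2 and 224.9 CPM after activation of *Thada*. The conditions overlapped, and the replicate 3 library was the highest of each. The log2 fold change was -0.003 (95% interval -0.42 to 0.41), and the adjusted p was 1 by edgeR's quasi-likelihood test. *Prkacb*, which encodes Cβ, varied less, from 217.4 to 234.2 CPM over the 6 libraries, with a log2 fold change of -0.01 (95% interval -0.25 to 0.22). Within replicates 1, 2 and 3, *Thada*-activated over control gave log2 ratios of 0.09, 0.03 and -0.10 for *Prkaca* and of 0.08, -0.01 and -0.11 for *Prkacb*. Neither gene thus held one direction in all 3 replicate numbers.

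*Prkar1a*, which encodes the type I regulatory subunit RIα, was the most abundant of the 9 genes, at rank 74 of 16640 by mean FPKM. It had levels of 3333, 3246 and 1024 CPM in the control libraries against 2621, 2583 and 1115 CPM after activation of *Thada*. Replicate 3 was the lowest library of each condition. The log2 ratio of *Thada*-activated over control was -0.35 and -0.33 in replicates 1 and 2 and 0.12 in replicate 3, so that the direction differed between the numbers. Over all libraries the log2 fold change was -0.27 (standard error 0.54, 95% interval -1.59 to 1.05), with an adjusted p of 1 by edgeR's quasi-likelihood test. With the replicate block the 95% interval was narrower, from -0.38 to 0.004. Without *Thada*-activated replicate 3 the fold change was 0.04. Without replicate 3 of both conditions, a setting chosen after the data were seen, it was -0.34 and edgeR's adjusted p was 6.14e-08, but its size was under the fold change needed for a call. That p rests on replicates 1 and 2, whose counts were far closer to each other than to replicate 3 (chi-square per degree of freedom 4.43 in control and 1.84 in *Thada*-activated cells, where 1 is counting noise alone, against 93.5 to 132.6 for pairs with replicate 3). The adjusted p of *Prkar1a* ranged from 6.14e-08 to 1 over the alternatives.

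The other regulatory genes were lower and differed less. *Prkar1b*, which encodes RIβ, had levels of 180.9, 178.0 and 227.7 CPM in the control libraries against 191.0, 196.1 and 234.5 CPM after activation of *Thada*. Its log2 fold change was 0.08 (95% interval -0.28 to 0.45), and each *Thada*-activated library exceeded the control library of its number, though the conditions overlapped. Its annotated span meets that of *Dnaaf5* on the opposite strand, and use of strand in counting is not given in the sources used here. *Prkar2a*, which encodes RIIα, had levels of 133.4, 143.2 and 123.8 CPM in the control libraries against 124.4, 128.7 and 110.3 CPM after activation of *Thada*. It was lower in *Thada*-activated cells within each number, with log2 ratios of -0.10, -0.15 and -0.17, and its adjusted p was 1 by edgeR's quasi-likelihood test. *Prkar2b*, which encodes RIIβ, had levels of 65.2, 69.3 and 100.3 CPM in the control libraries against 66.0, 67.5 and 101.6 CPM after activation of *Thada*. Its log2 fold change was 0.002 (95% interval -0.60 to 0.60), and both replicate 3 libraries lay above the other 4.

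*Pkia*, the gene of PKIα, had levels of 41.7, 43.5 and 58.9 CPM in the control libraries against 44.8, 42.8 and 71.1 CPM after activation of *Thada*. *Pkib*, the gene of PKIβ, had only 23 to 69 counts per library, or 2.05, 2.09 and 3.79 CPM in control against 1.63, 1.32 and 3.92 CPM after activation. For both genes the conditions overlapped and replicate 3 was the highest library of each condition. The log2 fold changes were 0.14 (95% interval -0.47 to 0.75) for *Pkia* and -0.20 (95% interval -1.44 to 1.03) for *Pkib*, each with an adjusted p of 1 by edgeR's quasi-likelihood test. *Pkig*, the gene of a further PKI protein, had a log2 fold change of 0.08 and *Prkx*, the gene of a related cAMP-dependent kinase, of 0.02, each with the same adjusted p.

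*Arhgap36* had levels of 6.38, 7.62 and 5.39 CPM in the control libraries against 12.5, 12.3 and 10.5 CPM after activation of *Thada*. These rested on 109, 131 and 94 counts in control and 222, 214 and 185 counts in *Thada*-activated libraries. Every *Thada*-activated library was above every control library, as for 338 of the 12516 tested genes (2.7%), and since the gene was selected on this contrast nothing is read from that count. The log2 fold change was 0.86 (standard error 0.19) without and 0.87 (standard error 0.12) with the block, and the log2 ratios within replicates 1, 2 and 3 were 0.97, 0.69 and 0.96. Among all genes past the fold threshold in the blocked fit, *Hdgfl3* lay just inside the call (adjusted p = 0.0481 by edgeR) and *Krt19* and *Fam151a* just outside (adjusted p = 0.0548 for each by edgeR), all named after their values were seen.

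Per gene length, mean levels over the 6 libraries were 704.0 FPKM for *Prkar1a*, 92.8 for *Prkaca*, 81.3 for *Prkar1b*, 54.5 for *Prkacb*, 32.8 for *Prkar2a*, 25.4 for *Prkar2b*, 14.3 for *Pkia*, 3.26 for *Arhgap36* and 1.08 for *Pkib*. The ranges of the neighbours *Prkaca* and *Prkar1b* overlapped, although *Prkaca* was the higher in each of the 6 libraries, while *Prkar2a* and *Prkar2b* changed order in both replicate 3 libraries. *Arhgap36* stood at 2.29, 2.73 and 1.95 FPKM in control and at 4.44, 4.38 and 3.76 FPKM in *Thada*-activated replicates 1, 2 and 3. It was thus low beside the catalytic subunits, with a ratio to their summed FPKM of 0.0161 ± 0.00417 in control and 0.0286 ± 0.0044 in *Thada*-activated cells (SD, n = 3). *Pkig*, at 73.2 FPKM, exceeded both PKI genes among the 9.

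**Figure D2:**
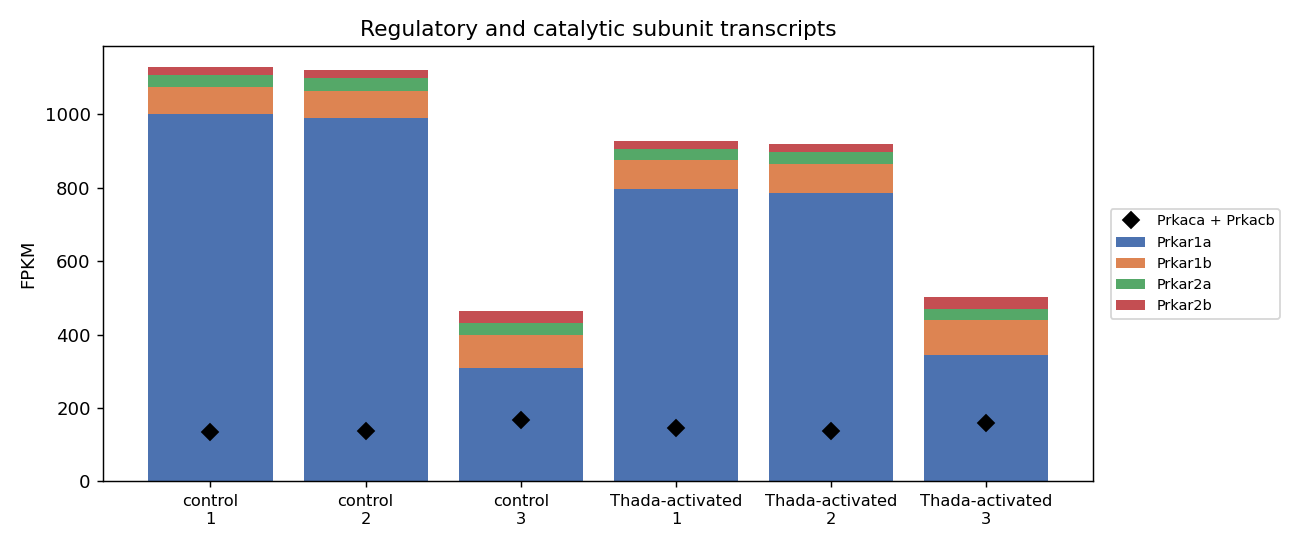
FPKM of the 4 regulatory subunit genes, stacked for each library, with the summed FPKM of *Prkaca* and *Prkacb* as black diamonds. The regulatory sum was 463.5 and 502.4 FPKM in the replicate 3 libraries and between 918.1 and 1128 FPKM in the others.

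*Prkar1a* made up 88.7%, 88.3% and 66.6% of the regulatory FPKM in control and 85.9%, 85.4% and 68.5% in *Thada*-activated replicates 1, 2 and 3. The regulatory sum over the catalytic sum was 8.35, 8.15 and 2.76 in control and 6.39, 6.64 and 3.15 in *Thada*-activated replicates 1, 2 and 3. Replicate 3 of each condition thus had the lowest share of *Prkar1a* and the lowest ratio. Without *Prkar1a*, the ratio of the other regulatory genes to the catalytic sum lay between 0.901 and 0.992 in all 6 libraries. Between conditions, the exact two-sided permutation test gave p = 0.6 for the *Prkar1a* share and p = 0.6 for the ratio, where 3 libraries against 3 cannot go below 0.1. The share differed by -1.29 percentage points over all libraries, by 4.43 without *Thada*-activated replicate 3 and by -2.86 without replicate 3 of both conditions. The ratio differed by -1.03, 0.0922 and -1.74 in the same settings. *Prkaca* held 62.7% ± 3.5 of the catalytic FPKM in control and 62.9% ± 3.14 in *Thada*-activated cells (SD, n = 3; exact permutation test, p = 0.7). The ratio of *Pkia* and *Pkib* to the catalytic sum was 0.0997 ± 0.00763 and 0.107 ± 0.0261 (SD, n = 3; exact permutation test, p = 0.9).

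Replicate 3 was then compared with the mean of replicates 1 and 2 within each condition, as a description, since replicate 3 was singled out with results known. *Prkar1a* was 3.21-fold lower in control and 2.33-fold lower in *Thada*-activated cells. Of the 9 genes it was the 1 over 1.5-fold lower in both conditions, as were 1551 of all tested genes (12.4%). *Pkib* was 1.83-fold and 2.66-fold higher and was the 1 gene over 1.5-fold higher in both, as were 1579 of all tested genes (12.6%). These shares of the 9 genes were near those of all genes. *Prkar2b* (1.49-fold and 1.52-fold higher) and *Pkia* (1.39-fold and 1.62-fold higher) passed 1.5-fold in *Thada*-activated cells alone. *Arhgap36* in replicate 3 had log2 ratios of -0.38 in control and -0.24 in *Thada*-activated cells. Of the 11 tested β-cell markers, 8 were lower and 3 higher in replicate 3 of both conditions, with a median log2 ratio of -0.41. Their sum was highest in replicate 3 because it is mostly *Ins2*. The part of these markers in the differences was not tested.

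Around PKA, 9 lists held 107 genes of the pathway, and 86 passed the filter. By edgeR's quasi-likelihood test 0 of the 86 were called in either direction and 0 had an unadjusted p under 0.05. With the replicate block 0 were called and 7 (8.14%) had an unadjusted p under 0.05, against 10.4% of all tested genes. Outside the cAMP-responsive genes these were *Adcy9* (higher in *Thada*-activated cells, unadjusted p = 0.00243), *Pja2* (lower, 0.025) and *Sphkap* (lower, 0.0324), with adjusted p-values of 0.198, 0.394 and 0.426 by blocked edgeR, named after their values were seen. DESeq2 also called 0 of the pathway genes, against 5 of 16601 genes. With limma the count was 0 as well, but limma called 0 of all 12516 tested genes. The median log2 fold change was -0.03, against -0.004 over all tested genes. In replicate 3 of both conditions, 14 of the 86 (16.3%) were over 1.5-fold higher and 10 (11.6%) over 1.5-fold lower.

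Of 24 A-kinase anchoring protein genes, which place PKA within the cell, 19 were tested, with a median log2 fold change of -0.04. The values were -0.20 for *Sphkap*, -0.07 for *Akap11*, -0.02 for *Map2* and -0.03 for *Nbea*. Of 17 adenylyl cyclase and G protein genes, which set cAMP synthesis, 12 were tested (median 0.03), with log2 fold changes of -0.07 for *Gnas*, 0.04 for *Gnao1*, 0.02 for *Gnai2* and 0.07 for *Adcy1*. None of these passed the test. Of 16 phosphodiesterase genes, which break cAMP down, 13 were tested (median 0.01), with values of 0.01 for *Pde3b*, 0.11 for *Pde1c*, -0.10 for *Pde10a* and -0.01 for *Pde4b*. *Rapgef4*, the gene of the cAMP sensor EPAC2, had a log2 fold change of 0.12, and *Rapgef3* was at the floor.

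All 11 genes of CREB factors and coactivators were tested (median log2 fold change -0.05), with values of -0.01 for *Sik3*, -0.05 for *Ep300*, -0.09 for *Crtc2* and -0.06 for *Creb1*. Of 19 genes known to respond to cAMP, 18 were tested, 5 with a log2 fold change above 0 and 13 below (median -0.06), beside 6093 above and 6423 below over all tested genes. *Scg2* stood at -0.12, *Vgf* at 0.01, *Sst* at -0.09 and *Irs2* at 0.05. Of these 18 genes, 6 (33.3%) were over 1.5-fold higher and 3 (16.7%) over 1.5-fold lower in replicate 3 of both conditions, against 12.6% and 12.4% of all tested genes, and 0 were called between conditions. With the replicate block 4 of the 18 (22.2%) had an unadjusted p under 0.05, against 10.4% of all tested genes: *Nr4a1*, *Fos* and *Fosb* with lower and *Gem* with higher values in *Thada*-activated cells, named after their values were seen. Their adjusted p-values by blocked edgeR were 0.326, 0.281, 0.444 and 0.298. Of 17 hedgehog pathway genes, 11 were tested (median 0.03), with values of 0.12 for *Ptch1*, -0.08 for *Gpr161*, 0.02 for *Sufu* and -0.18 for *Disp1*, while *Smo* was at the floor. *Pja2*, the gene of a ubiquitin ligase for regulatory subunits, had a log2 fold change of -0.17, *Pja1* of -0.10 and *Pdpk1*, the gene of a kinase that phosphorylates the catalytic subunit, of -0.07.

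Over the 6 libraries, the log2 CPM of *Arhgap36* was most like that of *Gpa33* (Pearson 0.988), *Tph1* (0.985), *Ndufaf7* (0.983), *Srl* (0.983) and *Thada* (0.982) among 12076 genes. The likeness includes the condition difference for which *Arhgap36* was selected. The summed catalytic genes were most like *Ifi30*, *Tyw5*, *Qars*, *Cby1* and *Dbf4* (Pearson 0.995 to 0.998), and *Gspt2*, *Galc*, *Tcim* and *Glt8d1* were among those most like the summed regulatory genes (0.998 to 0.999). As many as 1609 genes reached 0.95 with the regulatory sum, 385 with the catalytic sum and 19 with *Arhgap36*. The patterns of the catalytic and regulatory sums rest largely on the distance of replicate 3 from the other libraries, so these values describe the 6 libraries and carry no test.

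*Arhgap36* lies on the plus strand of chromosome X of GRCm38, from 49448359 to 49500250. Of the genes that start within 500 kb of it, *Enox2* and *Igsf1* passed the filter, with log2 fold changes of 0.10 and -0.16 (adjusted p = 1 for each by edgeR's quasi-likelihood test). Promoter windows from 250 bases before to 50 after an annotated start (RefSeq, GRCm38.p6) were found for 8 of the 9 genes, 23 windows in all. They were searched on both strands for the palindromic cAMP response element TGACGTCA and for its shorter core TGACG, which the full element contains. The full element was at 1 position, near annotated starts of *Prkar1a*, which 2 overlapping windows of that gene share. Counted by gene, 1 of the 8 genes held it, against 3.74% of the tested genes with a window and 2.03% of all genes with a window. The shorter core was in 7 of the 23 windows (30.4%), among them both overlapping windows of *Prkar1a* with the same matches, against 20.8% of all windows. By gene it was in 5 of the 8, against 35.9% of the tested genes with a window and 23.0% of all genes with a window. The 8 genes have more windows each than all genes with a window (23 for 8, against 32851 for 27025), which favours a count by gene. The number of windows per tested gene is not given here. A match describes the letters of the window and is not shown to be a site of binding.

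The promoter of *Prkar1a*, the gene with the widest range between libraries, is shown for the window chr11:109650699-109650998 (plus strand), with the element in capitals, and beside it those of *Arhgap36* at chrX:49463695-49463994 and chrX:49470200-49470499 (plus strand), which hold neither motif. Both *Arhgap36* windows lie at starts within the gene (49463945 and 49470450), and the window at its outermost start was not analysed here.
Prkar1a: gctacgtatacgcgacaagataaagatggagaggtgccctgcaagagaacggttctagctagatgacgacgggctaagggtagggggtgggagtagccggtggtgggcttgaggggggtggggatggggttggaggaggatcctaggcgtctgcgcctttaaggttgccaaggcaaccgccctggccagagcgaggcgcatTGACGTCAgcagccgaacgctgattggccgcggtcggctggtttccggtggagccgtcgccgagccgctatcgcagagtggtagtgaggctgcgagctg
Arhgap36, first window: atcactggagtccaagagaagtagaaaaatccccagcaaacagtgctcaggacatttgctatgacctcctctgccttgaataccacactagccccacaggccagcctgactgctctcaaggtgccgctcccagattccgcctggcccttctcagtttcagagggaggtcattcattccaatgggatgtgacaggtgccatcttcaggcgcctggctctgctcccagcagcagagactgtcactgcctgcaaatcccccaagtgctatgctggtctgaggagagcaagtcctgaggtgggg
Arhgap36, second window: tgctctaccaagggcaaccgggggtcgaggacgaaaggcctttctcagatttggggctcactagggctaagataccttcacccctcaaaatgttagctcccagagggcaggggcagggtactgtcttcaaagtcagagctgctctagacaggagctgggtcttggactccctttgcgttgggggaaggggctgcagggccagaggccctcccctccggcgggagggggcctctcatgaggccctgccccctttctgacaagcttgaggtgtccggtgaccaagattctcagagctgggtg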

How the data were processed

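RNA of 3 control and 3 *Thada*-activated libraries of MIN6 cells was analysed. Estimated counts of 16640 genes per library, not normalized, were deposited, and the authors gave FPKM values in a table of the series. The submitters' processing notes name Bowtie2, RSEM, DESeq2 and GRCm38. Fold changes and p-values of the authors' own comparison in that table were not used. One broken line of a text cell was skipped.

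Estimated counts were rounded, filtered by filterByExpr, normalized by TMM and tested in edgeR 4.0.16 (R 4.3.3) by robust quasi-likelihood fits, with Benjamini-Hochberg adjustment over all 12516 tested genes. Alternatives used DESeq2 1.42.0 and limma 3.58.1. Shares of FPKM were compared by exact permutation tests. The tests were tried on simulated data. Where these held differences between replicates, edgeR without the replicate block recovered far fewer of the changed genes than edgeR with it. A gene at or under 3 counts was taken as at the floor. Counts in CPM rest on 17166511 to 17727004 counts per library, which limits *Pkib* most.

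The members and lists were chosen with earlier results of these data known. Genes named by rule were the 9 members, *Prkx*, *Pkig*, *Thada*, the 4 most abundant tested genes of each pathway list and any called. To these were added the 5 genes most like each of 3 patterns and tested genes within 500 kb of *Arhgap36*. One gene so chosen is not reported here. Genes of the marker lists were named in part. *Adcy9*, *Nr4a1*, *Fos*, *Fosb*, *Gem*, *Hdgfl3* and *Fam151a* were outside the rule and were named after their values were seen. Some genes unlisted or at the floor, and *Dnaaf5*, whose span meets that of *Prkar1b*, were also named outside it. Ratios and shares outside the planned set (the regulatory ratio without *Prkar1a*) were added after the data were seen and are given without a test.

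Replicate numbers come from the sample labels. Deviations from the condition means correlated at 0.667, 0.671 and 0.869 between libraries of the same number, so the numbers were taken to pair the libraries. Crossing replicates 1 and 2 gave 0.705 and 0.726, so the numbers do not separate these 2.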

Additional observations from a re-analysis of the deposited data

How the results depend on the processing

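The counts of called PKA genes and of called pathway genes were 0 in each of the 18 alternatives. Most of these alternatives called 0 of all tested genes, so that a count of 0 was fixed in advance there. Those that called any gene called from 5 (DESeq2) to 70 genes (replicate block, without replicate 3 of both conditions). The replicate block gave 0 for both and changed no call among these genes. Its composition differences equal those without it by arithmetic, since both conditions hold the same replicate numbers, so this equality is no check. Of the 8 PKA genes, 7 changed the sign of their log2 fold change in some alternative, the exception being *Prkar2a* (-0.14), and none of these values was past the call. With the replicate block *Prkaca* was 0.006. *Prkaca* was 0.019 and *Prkacb* 0.004 in limma on log2(FPKM + 1) and on log2(FPKM + 0.1). *Prkar2b* was -0.001 by DESeq2 and without a filter. Settings added after the data were seen gave, for the replicate block with library sizes without the top 20 genes, 0.007 for *Prkaca*, for DESeq2 with the replicate block, 0.003 for *Prkaca* and -0.003 for *Prkar2b*, and without replicate 3 of both conditions, with or without the replicate block, 0.063 for *Prkaca*, 0.035 for *Prkacb* and -0.01 for *Prkar2b*.

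With each library left out in turn, log2 fold changes ranged from -0.10 to 0.16 for *Prkaca*, -0.04 to 0.014 for *Prkacb*, -0.64 to 0.038 for *Prkar1a*, -0.015 to 0.21 for *Prkar1b*, -0.23 to 0.22 for *Prkar2b*, -0.13 to 0.31 for *Pkia* and -0.84 to 0.15 for *Pkib*. For *Prkar2a*, which held its sign, the range was -0.19 to -0.077. The log2 fold change of *Arhgap36* ranged from 0.75 to 1.00, and was 0.65 in limma on log2(FPKM + 1).

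All 7 tested composition differences changed direction in some alternative. With each library left out, *Thada*-activated minus control ranged from -1.56 to 2.26 percentage points for the *Prkaca* share, -8.58 to 4.43 for *Prkar1a*, -2.35 to 5.58 for *Prkar1b*, -0.832 to 1.11 for *Prkar2a* and -1.25 to 1.89 for *Prkar2b*. The ratios ranged from -2.86 to 0.0922 for regulatory over catalytic and from -0.00722 to 0.0159 for inhibitors over catalytic. Leaving out 1 library leaves the conditions with unequal shares of replicate 3 libraries. Without replicate 3 of both conditions the *Prkar2a* share differed by 0.381 and the inhibitor ratio by -0.00305. The genes over 1.5-fold higher in replicate 3 numbered 2 in place of 1 with library sizes without the top 20 genes, and from 1 to 2 without replicate 1 or without replicate 2. The cause was not tested. Depth limits *Pkib* most. The intervals without the replicate block include the distance of replicate 3. With the block, that of *Prkar2b* went from -0.60 to 0.60 down to -0.14 to 0.14, and that of *Pkib* still spanned -0.73 to 0.24. For *Prkacb*, with replicate 3 log2 ratios of only 0.08 in control and -0.06 in *Thada*-activated cells, the interval narrowed too. It went from -0.25 to 0.22 down to -0.15 to 0.12, and the reason for the narrowing was not tested.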
